A study of Homo sapiens with 10 samples.

Results

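Immediate early genes are transcribed within minutes of a growth signal, from promoters whose factors are already in place, and many encode short-lived transcription factors. In melanoma cells with mutant BRAF the kinases MEK and ERK are active without a growth factor, and ERK switches such promoters on through serum response factor, which binds a sequence called the CArG box, and its ETS-family partners. 10 immediate early genes were followed here: the zinc finger factors EGR1, EGR2 and EGR3, the immediate early response genes IER2, IER3 and IER5, the Krüppel-like factors KLF4 and KLF6, the orphan nuclear receptor NR4A1 and the growth factor-induced oncogene MYC. They were picked by their symbols from the 57955 genes of the deposited files, and all 10 were among the 17288 genes that passed a filter on low counts.

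RNA was sequenced from 5 melanoma cell lines with the BRAF V600E mutation and from a derivative of each that resisted the BRAF inhibitor encorafenib combined with the MEK inhibitor binimetinib (E+BRes), as 10 libraries, 1 per line and state. WM983A, WM278 and WM902B came from primary tumours, and WM983B and WM1617 from metastases. Each resistant line was selected from its sensitive line under stepwise exposure to both drugs that began at 1 nM, reached 200 nM after 3 to 5 months and was then held at 200 nM, whereas the sensitive lines were the original cultures. Acquired resistance and the presence of the drugs therefore cannot be told apart in any comparison below. All lines were otherwise cultured in the same medium.

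The libraries held 13970608 to 16966008 counts in the sensitive lines and 13693922 to 18033247 in the resistant ones, so that 3 counts, taken as the smallest detectable level, corresponded to 0.172 to 0.230 CPM, the unit of counts scaled for library size. Every member was above this floor in every library, and 8 of the 10 had at least 10 counts in each. The summed level of 7 melanocyte markers (MITF, SOX10, PMEL, MLANA, TYR, TYRP1 and DCT) was 336 to 4459 CPM in the sensitive lines and 86.1 to 4325 CPM in the resistant ones. Leukocyte, keratinocyte and endothelial markers reached at most 3.64, 1.08 and 2.71 CPM, with CD3E, KRT1 and CDH5 at or under the floor in every library, while 4 fibroblast markers summed to 12.3 to 78.7 CPM in the sensitive lines and 6.67 to 1372 CPM in the resistant ones. These 4 did not move together: in the edgeR comparison described below their log2 fold changes were 6.11 (COL1A1), 2.99 (PDGFRA), 0.13 (DCN) and -0.66 (LUM). None had an adjusted p at or under 0.05. The resistant WM983A library stood apart, since its correlation across genes with sensitive WM983A (Pearson r = 0.79) was below that with sensitive WM902B (r = 0.81). In bulk RNA, fewer cells of a type and less RNA per cell cannot be told apart.

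The promoters of EGR1 and EGR2 are shown because they held the CArG box, through which ERK signals reach immediate early genes. RefSeq promoter sequences (GRCh38.p14) were matched to 7 of the 10 members, with 10 promoters in all because EGR2 and NR4A1 have several starts. No promoter entry was used for EGR3, IER3 and MYC, so theirs were not searched. In the 250 bases upstream of the start, read on both strands, 2 of these 10 promoters held a CArG box, compared with 407 of 35116 promoters (1.16%). In EGR1 (chr5:138465229-138465478, plus strand) the 2 boxes began 105 and 83 bases upstream of the start, and in EGR2 (chr10:62816374-62816616, minus strand, without the bases that the annotation gives to an exon) the single box began 71 bases upstream of an internal start, 1 of several that RefSeq gives, in an intron of the longer transcript. Capitals mark the CArG boxes, 5′ to 3′.
EGR1: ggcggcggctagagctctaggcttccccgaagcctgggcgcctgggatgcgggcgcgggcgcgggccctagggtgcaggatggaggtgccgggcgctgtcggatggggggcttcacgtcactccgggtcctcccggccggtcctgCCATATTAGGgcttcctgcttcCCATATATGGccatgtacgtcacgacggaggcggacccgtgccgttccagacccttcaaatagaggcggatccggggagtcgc
EGR2: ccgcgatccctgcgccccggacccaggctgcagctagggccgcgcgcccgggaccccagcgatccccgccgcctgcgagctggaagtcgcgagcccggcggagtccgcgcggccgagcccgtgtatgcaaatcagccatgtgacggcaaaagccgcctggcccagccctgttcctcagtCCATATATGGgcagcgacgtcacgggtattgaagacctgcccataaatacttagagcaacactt
The EGR factors' own site (GCGNGGGCG) was found in 3 of the 10, those of EGR1, KLF4 and KLF6 (8.41% of all promoters). The exact letters CCGGAA, a strict form of the ETS-family site, were found in 3, of IER2, IER5 and NR4A1 (14.5%). The GC box (GGGCGG), which can overlap the EGR site, was found in 6 of the 10 (42.6%). Neither the full cyclic AMP response element (TGACGTCA, 1.65%) nor the exact letters TATAAA (10.7%) were found in any. These are exact matches of letters in 1 window, not measured binding, and shorter or variant forms of the sites were not searched. GGAA, part of CCGGAA, lies on the other strand between the 2 CArG boxes of EGR1. The letters CGTCA, part of TGACGTCA, occur in both printed sequences.

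Levels could be compared between genes only per length of exon, as CPM per kilobase (CPM per kb). This length joins all exons that GENCODE gives for any transcript of a gene, from 1350 bases for IER3 to 7295 for NR4A1. It can exceed the length of the transcripts present, by unequal amounts between genes, and the annotation behind the counts is not given. The order of genes below may therefore depend in part on the annotation. In the sensitive lines the mean level ran in the order IER2 (24.2 ± 21.2 CPM per kb, SD, n = 5), KLF6 (18.1 ± 4.09), EGR1 (17.5 ± 3.81), MYC (17.1 ± 4.53), IER5 (12.1 ± 6.38), NR4A1 (11.02 ± 7.29), EGR3 (9.89 ± 5.23), KLF4 (3.70 ± 4.50), IER3 (2.34 ± 0.562) and EGR2 (0.853 ± 0.511). Of these neighbours in the order, IER3 and EGR2 had ranges that did not overlap, and all other neighbours overlapped. In the resistant lines EGR1 came first at 51.4 ± 49.9 CPM per kb, followed by IER2 at 42.4 ± 31.7, MYC at 23.1 ± 14.7, KLF6 at 22.1 ± 6.29 and IER5 at 15.3 ± 11.4. KLF4 (4.44 ± 2.58), NR4A1 (3.87 ± 2.87), EGR3 (3.46 ± 5.99), IER3 (1.49 ± 0.814) and EGR2 (1.36 ± 1.15) followed, and every pair of neighbours overlapped.

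**Figure D1:**
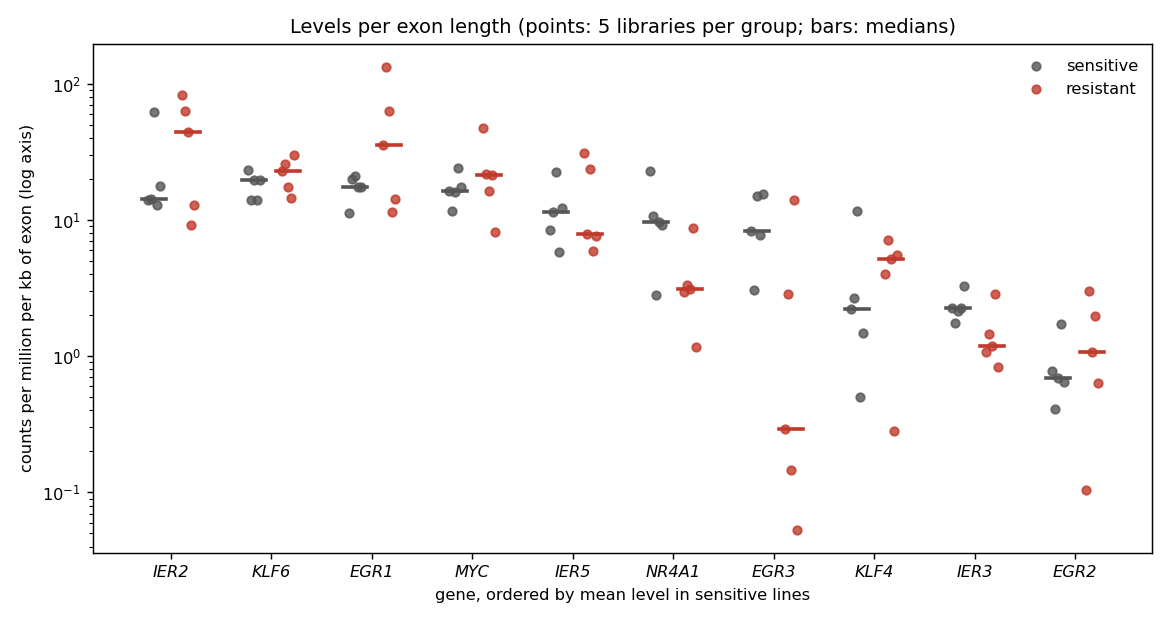
Level of each gene per exon length (CPM per kb, log axis) in the 5 sensitive (grey) and 5 resistant (red) libraries, with bars at the medians. The red points of EGR3 run from 0.0533 to 14.0 CPM per kb, whereas the points of KLF6 stay between 14.0 and 30.1 CPM per kb in both groups.

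EGR1, a zinc finger factor of the growth response, was higher in the resistant line in WM983A, WM983B and WM278 and lower in the other two. Its normalised counts (counts scaled to a common library size) in the sensitive lines were 537 (WM983A), 947 (WM983B), 1011 (WM278), 833 (WM1617) and 837 (WM902B). In the resistant lines they were 1685, 6324, 3013, 548 and 678 in the same order. The sensitive lines lay within 1.88-fold of each other, and the resistant lines spread 11.5-fold, from inside the sensitive range (WM1617 and WM902B) to above it, so the groups overlapped. The log2 ratios of resistant to sensitive were 1.65, 2.74, 1.58, -0.60 and -0.30 in that order of lines. The edgeR quasi-likelihood test of 5 resistant against 5 sensitive libraries gave a log2 fold change of 1.56 ± 0.61 (SE), an unadjusted p of 0.0272 and a Benjamini-Hochberg adjusted p of 0.669. Here and below, the SE of an edgeR fit is worked back from its test statistic and is not a separate measure of spread. The unadjusted threshold of 0.05 was no longer passed with cell line as a block (1.02 ± 0.55, adjusted p = 0.507, edgeR), in the primary lines alone (1.16 ± 0.57, edgeR) or by limma voom (1.01 ± 0.61), nor without WM983B (0.87 ± 0.54), WM983A (1.54 ± 0.73) or WM278 (1.57 ± 0.75). The exact permutation test of the libraries gave p = 0.190.

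NR4A1, an orphan nuclear receptor induced by growth and stress signals, was lower in the resistant line in WM983A, WM983B and WM902B. Its normalised counts in the sensitive lines were 2532, 1189, 313, 1064 and 1013, in the order WM983A, WM983B, WM278, WM1617 and WM902B. In the resistant lines they were 327, 370.3, 348, 973 and 130.1. Sensitive WM278 cells lay as low as most resistant lines, and resistant WM1617 cells nearly as high as most sensitive ones. The summed melanocyte markers were lower in the same 3 lines (from 2909 to 86.1 CPM in WM983A, from 1802 to 132 CPM in WM983B and from 2729 to 232 CPM in WM902B) and nearly level in WM278 (336 and 299.6 CPM) and WM1617 (4459 and 4325 CPM), and their part in the result was not tested. The log2 ratios were -2.95, -1.68, 0.15, -0.13 and -2.95, and the edgeR log2 fold change was -1.51 ± 0.59 with an unadjusted p of 0.0276 (adjusted p = 0.669). With the block it was -1.52 ± 0.58 and still past the unadjusted threshold (adjusted p = 0.466, edgeR). It lost that threshold without WM983A (-0.98 ± 0.62), WM983B (-1.47 ± 0.73) or WM902B (-1.32 ± 0.63), and the exact permutation test gave p = 0.0794.

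EGR1 and NR4A1 were the 2 of 10 members that passed the rule of a 2-fold change with an unadjusted p no higher than 0.05, 1 in each direction, whereas 4.41% of all genes tested passed that rule, 3.53% higher and 0.885% lower. No member and no other gene passed after adjustment by edgeR (lowest adjusted p 0.669 for a member and 0.630 for any gene, with 1235 genes at or under 0.05 before adjustment). DESeq2's Wald test called 106 genes after adjustment and no member, the lowest adjusted p of a member being 0.311. With cell line as a block, NR4A1 remained and EGR1 did not, against 5.54% of all genes, 3.49% higher and 2.05% lower.

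**Figure D2:**
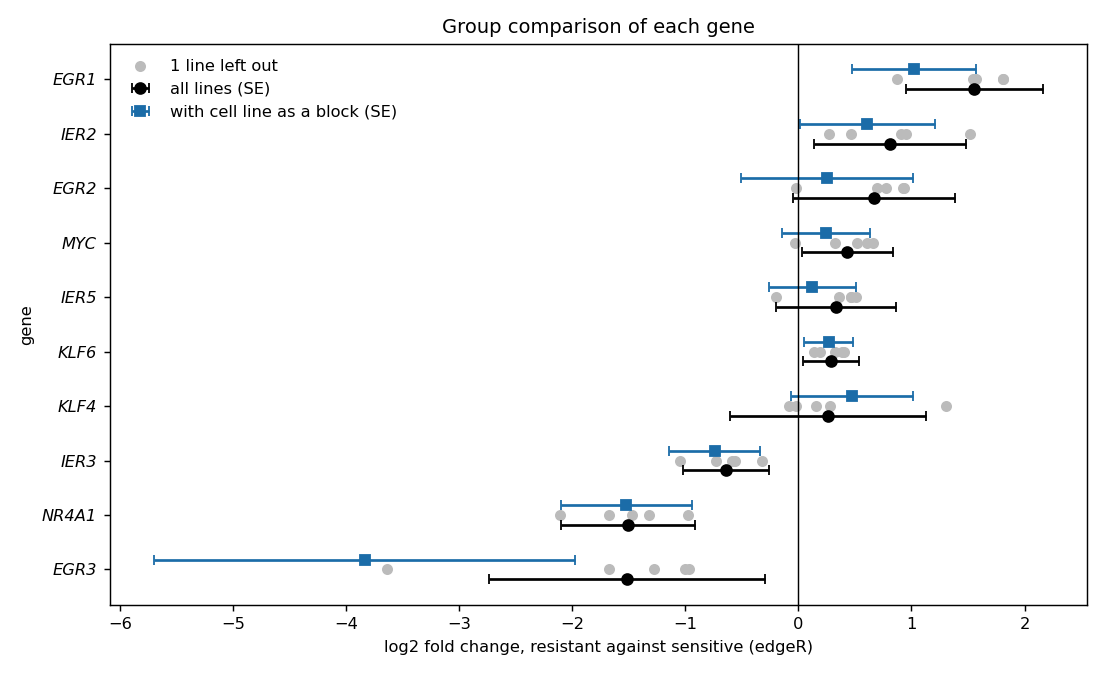
Log2 fold change of each gene, resistant against sensitive, by edgeR over all lines (black, bars SE), with cell line as a block (blue, bars SE) and with each line left out in turn (grey). The SEs are worked back from the test statistic. EGR1 is at 1.56 over all lines and 0.87 without WM983B, NR4A1 is at -1.51 and -0.98 without WM983A, and the points of EGR3 run from -0.97 to -3.84.

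EGR3, an EGR factor that is itself a target of ERK signalling, had the widest ratios within lines of the 10 genes. Its normalised counts in the sensitive lines were 635 (WM983A), 235 (WM983B), 1142 (WM278), 593 (WM1617) and 1179.5 (WM902B). In the resistant lines they were 22.2, 218, 11.2, 1068.5 and 4.08. The 3 lines of primary origin were 28.6-fold, 102-fold and 289-fold lower in the resistant state (WM983A, WM278 and WM902B), while the metastatic WM983B was 1.08-fold lower and WM1617 1.80-fold higher. The deposited counts behind the last primary line were 1161 and 3.96, the latter just above the floor of 3 counts. The groups overlapped, because the resistant WM1617 and WM983B libraries lay in or near the sensitive range of 235 to 1179.5.

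The test of EGR3 depended on how the lines were averaged. edgeR, which fits the mean counts of the groups, gave a log2 fold change of -1.51 ± 1.22 (adjusted p = 0.829), and with cell line as a block -3.84 ± 1.86 (adjusted p = 0.494), neither past the unadjusted threshold. The difference of mean log2 levels was -3.69 with an exact permutation p of 0.0476, the only member at or under 0.05, where 6.20% of all genes were. That test leaves the pairing of libraries by line aside, and exchanging the states within lines has 32 patterns and allows no p under 0.0625. By limma voom the log2 fold change was -3.65 ± 1.18, past the unadjusted threshold (adjusted p = 0.786). Leaving out any line of the 5 other than WM1617 took the exact p to between 0.0857 and 0.171, and without WM1617 edgeR gave -3.64 ± 1.20 (adjusted p = 0.288), past the unadjusted threshold. In the primary lines alone edgeR gave -6.31 ± 0.72, past the unadjusted threshold (adjusted p = 0.457). The mean log2 ratio was -6.40 in the 3 primary and 0.37 in the 2 metastatic lines. A test of this difference, chosen after the values were seen, gave 6.92 ± 1.26 on the log2 scale (edgeR interaction, unadjusted p of 0.000458, adjusted p = 1.00). With cell line as a block it gave 6.77 ± 1.03 (unadjusted p of 0.000713, adjusted p = 1.00), and 0.954% and 1.85% of all genes were at or under 0.05 before adjustment in the 2 fits. Of the 2 metastatic lines, WM1617 changed little at most genes. It had 6.63% of all genes at least 2-fold apart, against 19% to 36.3% in the other lines. The metastatic side of this difference therefore rests mainly on WM983B. The 2 metastatic lines come from the same patients as 2 of the primary lines, so the 5 lines represent 3 patients. The summed melanocyte markers, given above, were lower in the resistant state in the primary WM983A and WM902B and in the metastatic WM983B. They were nearly level in WM1617 and in the primary WM278, whose sensitive level of 336 CPM was already the lowest of the sensitive lines. Their part in the change of EGR3 was not tested.

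IER3, which acts on apoptosis and on ERK signalling, was the member most like EGR3, at lower counts in the sensitive lines. Its normalised counts in the sensitive lines were 46.5, 35.8, 44.4, 46.2 and 67.1 in the order above, and in the resistant lines 22.2, 30.1, 24.2, 59.2 and 16.99. It was lower in the resistant line in WM983A, WM983B, WM278 and WM902B and higher in WM1617, with log2 ratios of -1.03, -0.24, -0.85, -1.92 and 0.35. The resistant WM1617 value lay inside the sensitive range, and the other 4 resistant values lay below it. The edgeR log2 fold change was -0.64 ± 0.38 (adjusted p = 0.768), and the exact permutation p was 0.0635. Without WM1617 the log2 fold change was -1.05 ± 0.35, past the unadjusted threshold (edgeR, adjusted p = 0.292). The sensitive WM983B value rests on a count recovered from a date.

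**Figure D3:**
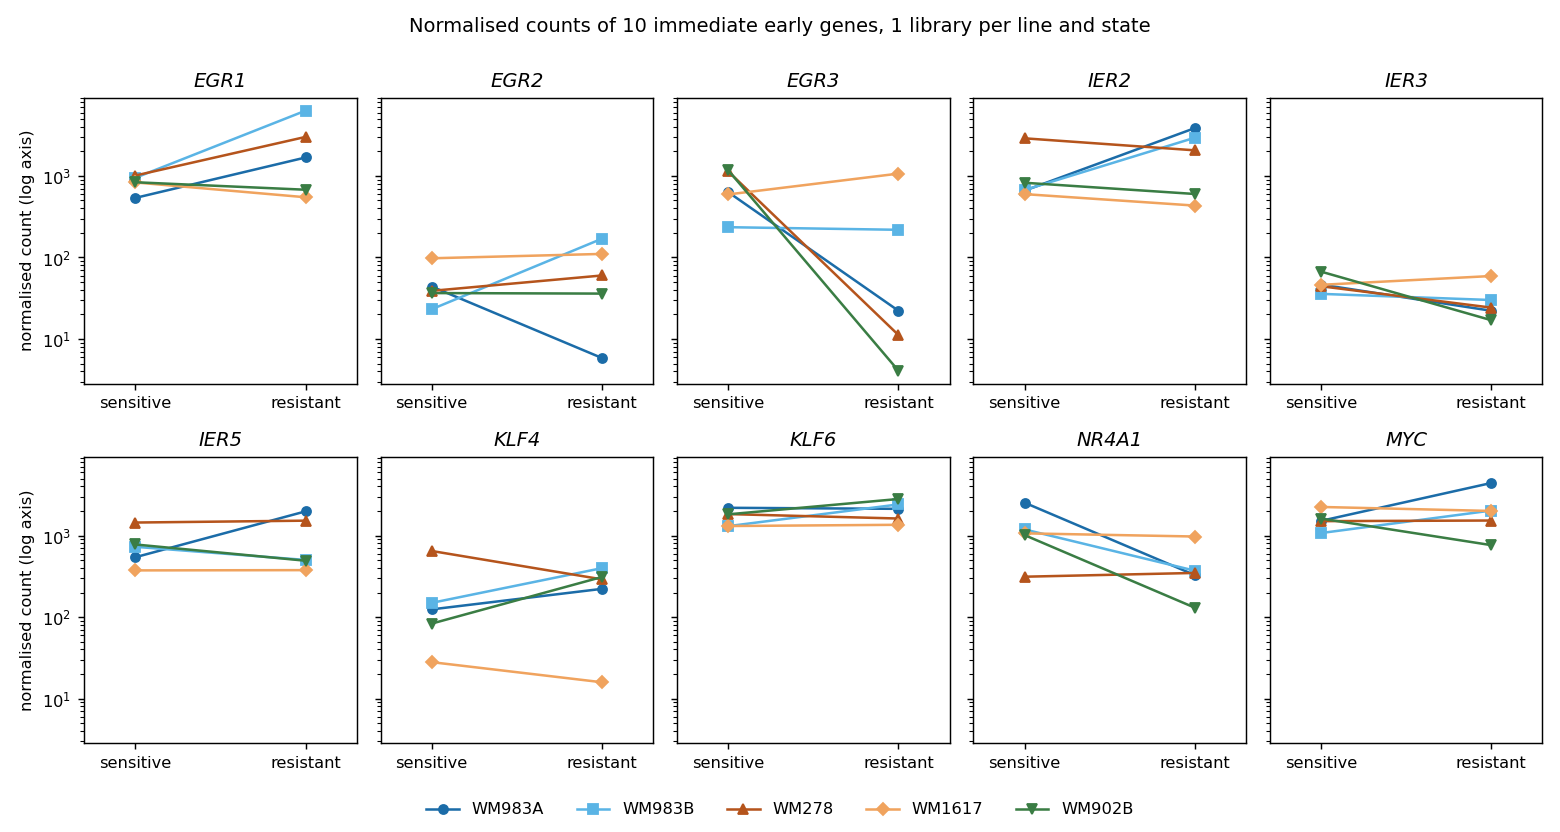
Normalised count (log axis) of each gene in the sensitive and resistant library of the 5 lines, joined by line. The lines of EGR3 slope down in WM983A, WM278 and WM902B to 22.2, 11.2 and 4.08 and end at 218 in WM983B and 1068.5 in WM1617, and those of KLF6 stay between 1303 and 2808.

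EGR2, which acts in peripheral myelination and T cell tolerance, had the lowest mean level per exon length in both groups, although the resistant median of EGR3 was lower (0.290 against 1.07 CPM per kb). It had normalised counts of 44.01, 23.2, 38.9, 97.7 and 36.6 in the sensitive and 5.84, 170.0, 60.1, 111 and 36.0 in the resistant lines. The resistant WM983A and WM983B libraries were its lowest and highest values of all, with log2 ratios of -2.72 and 2.82, although the 2 lines come from 1 patient, and its ratios in WM278, WM1617 and WM902B were 0.61, 0.18 and -0.02. The edgeR log2 fold change of 0.67 ± 0.71 (adjusted p = 0.881) turned to -0.02 without WM983B.

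IER2, a small nuclear factor induced by serum, was higher in the resistant state in both lines of 1 patient and slightly lower in the other 3 lines. Its normalised counts were 660, 672, 2897, 599 and 825 in the sensitive and 3868, 2949, 2063, 433 and 601 in the resistant lines. The resistant WM983A and WM983B libraries and both WM278 libraries were high and the rest low, so the groups overlapped. The log2 ratios were 2.55, 2.13, -0.49, -0.47 and -0.46, with an edgeR log2 fold change of 0.81 ± 0.67 (adjusted p = 0.837). Without WM278, whose sensitive level was far above that of the other sensitive lines, the log2 fold change was 1.52 ± 0.66 and just past the unadjusted threshold (edgeR, adjusted p = 0.755).

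IER5, which takes part in the heat shock response, differed by more than 2-fold between the states in WM983A alone. It had normalised counts of 541, 727, 1444, 374 and 777 in the sensitive lines and 1980.4, 502, 1523, 376 and 491 in the resistant ones, which are log2 ratios of 1.87, -0.53, 0.08, 0.01 and -0.66. The edgeR log2 fold change of 0.33 ± 0.53 (adjusted p = 0.928) turned to -0.20 without WM983A.

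KLF4, a factor of epithelial differentiation and pluripotency, spread 23.1-fold between the sensitive lines alone. Its normalised counts were 124, 149, 647, 28.0 and 83.1 in the sensitive lines and 222, 398, 290.0, 15.8 and 310.3 in the resistant ones. Both WM1617 libraries were lowest in their group. The log2 ratios of 0.83, 1.41, -1.15, -0.78 and 1.89 went both ways, and the edgeR log2 fold change of 0.26 ± 0.87 (adjusted p = 0.972) turned to -0.08 without WM983B and to -0.02 without WM902B.

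KLF6, a widely expressed growth-restraining factor, was the steadiest member, within 2-fold in each of the 5 lines. Its normalised counts were 2189.9, 1303, 1834, 1308 and 1820.2 in the sensitive and 2127, 2409.8, 1618, 1355 and 2808 in the resistant lines. The log2 ratios ran from -0.18 in WM278 to 0.89 in WM983B, and the edgeR log2 fold change was 0.29 ± 0.25 (adjusted p = 0.851).

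MYC, which drives ribosome production and growth, was higher in the resistant WM983A and lower in the resistant WM902B. Its normalised counts were 1513, 1073, 1502, 2242 and 1616 in the sensitive lines and 4416, 2026, 1529, 2003 and 762 in the resistant ones. The resistant WM983A and WM902B libraries were the highest and the lowest of the 10, and the other 3 resistant values lay inside the sensitive range. The log2 ratios were 1.54, 0.92, 0.03, -0.16 and -1.08, and the edgeR log2 fold change of 0.43 ± 0.41 (adjusted p = 0.860) turned to -0.03 without WM983A. Exact permutation p-values of the remaining members were 0.841 for EGR2, 0.468 for IER2, 0.857 for IER5, 0.698 for KLF4, 0.294 for KLF6 and 0.651 for MYC, where 252 splits allow no p under 0.00794.

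By line, the members differed most often in WM983A and by less than 2-fold in WM1617. In WM983A, 4 members were at least 2-fold higher (EGR1, IER2, IER5 and MYC) and 4 at least 2-fold lower (EGR2, EGR3, IER3 and NR4A1), where 16.9% of all genes were as much higher and 19.4% as much lower (36.3% together). In WM983B, 4 were higher (EGR1, EGR2, IER2 and KLF4) and 1 lower (NR4A1), where 16.2% of all genes were higher and 11.2% lower (27.4%). In WM278, 1 was higher (EGR1) and 2 lower (EGR3 and KLF4), where 12% of all genes were higher and 7.02% lower (19%). In WM902B, 1 was higher (KLF4) and 4 lower (EGR3, IER3, NR4A1 and MYC), where 15.4% of all genes were higher and 12% lower (27.4%). WM1617 had 0 of 10, where 2.83% of all genes were higher and 3.79% lower (6.63%). With 1 library per line and state these ratios have no replicate check. Of the 50 ratios, 10 were at least 2-fold higher, 11 at least 2-fold lower and 29 within 2-fold. No member had a ratio of 1 direction in all 5 lines, as 11.1% of all genes had, and EGR3, IER3 and NR4A1 had one in 4 lines. The groups overlapped for all 10 members, while 0.758% of all genes had groups that did not overlap.

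**Figure D4:**
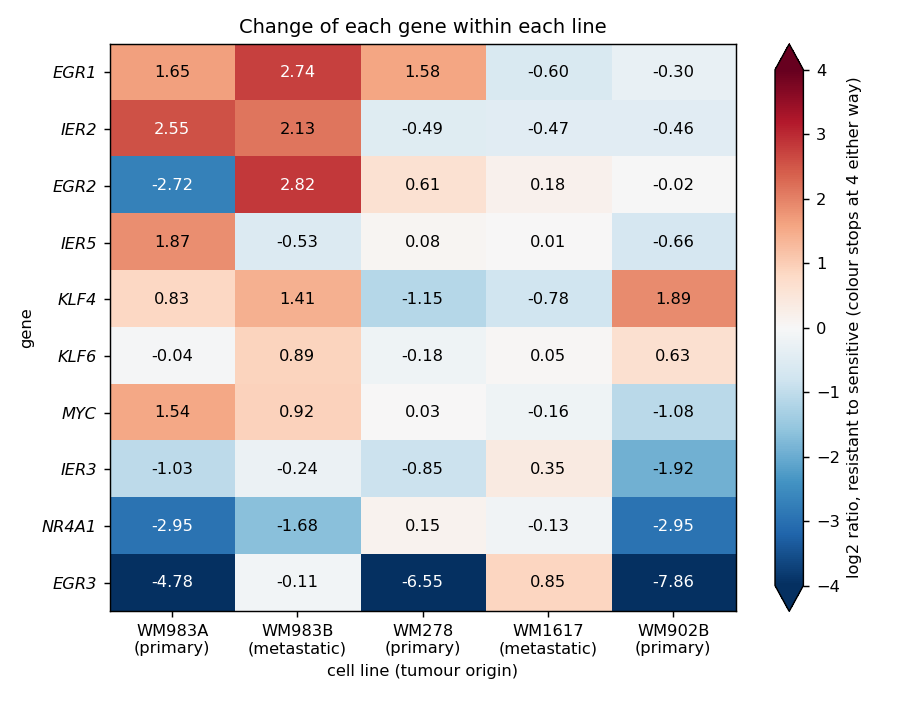
Log2 ratio of resistant to sensitive normalised count for each gene (rows) in each line (columns, with its tumour origin), in red where higher and blue where lower, with the colour ending at 4 either way. The WM1617 column stays within -0.78 and 0.85, and EGR3 is darkest in the 3 primary lines, at -4.78, -6.55 and -7.86.

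The ERK output genes, transcripts that follow ERK activity such as the phosphatase DUSP6, the feedback inhibitor SPRY4 and the ETS factors ETV4 and ETV5, were measured beside the members. Of 13 on the list, 2 passed the unadjusted rule, both lower (SPRED1 at -1.16 ± 0.46 and DUSP4 at -1.24 ± 0.51, edgeR), where 0.885% of all genes passed as lower. On the list 1 gene had a log2 fold change above 0, and the median was -1.16 against 0.03 for all genes and 0.31 for the members. With cell line as a block 7 of the 13 passed, all lower (DUSP4, ETV4, DUSP6, ETV5, ETV1, SPRED1 and SPRY2), where 2.05% of all genes did. DUSP6 had log2 ratios of -3.65 (WM983A), -1.74 (WM983B), -1.08 (WM278), -0.31 (WM1617) and -4.09 (WM902B), and an edgeR log2 fold change of -1.38 ± 0.72 (adjusted p = 0.732). ETV5 had -1.99, -0.24, -1.76, -0.45 and -3.25 in the same order. By edgeR, SPRY4 was at -1.37 ± 0.79 (adjusted p = 0.760), ETV4 at -1.64 ± 0.85 (adjusted p = 0.732) and ETV5 at -1.16 ± 0.54 (adjusted p = 0.703). EGR3, ETV5 and DUSP6 had their lowest ratio in WM902B. In WM983B EGR3 and ETV5 were nearly level, while DUSP6 was at -1.74. DUSP6 was lower in every line. EGR1 and IER2 were both higher in WM983A and WM983B and both lower in WM1617 and WM902B. In WM278 EGR1 was higher and IER2 lower.

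Of 29 other immediate early genes, 10 passed as higher and 2 as lower by the unadjusted rule, with a median of 1.05, where 3.53% of all genes passed as higher and 0.885% as lower. With the block 14 passed as higher and 3 as lower, where 3.49% and 2.05% of all genes did. The 4 with the smallest p were the phosphatase DUSP1 (2.54 ± 0.55), the AP-1 subunits JUNB (1.74 ± 0.42) and FOS (2.42 ± 0.61) and the mRNA decay factor ZFP36 (2.45 ± 0.65), each by edgeR with an adjusted p of 0.630. Their log2 ratios in WM1617 were 0.08 for DUSP1, 0.35 for JUNB, 0.41 for FOS and -0.64 for ZFP36, and in the other 4 lines each was at least 0.95. JUN, a further AP-1 subunit, had an edgeR log2 fold change of 1.56 ± 1.13 (adjusted p = 0.809), and with the block 1.87 ± 0.59 and past the unadjusted threshold (adjusted p = 0.461).

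**Figure D5:**
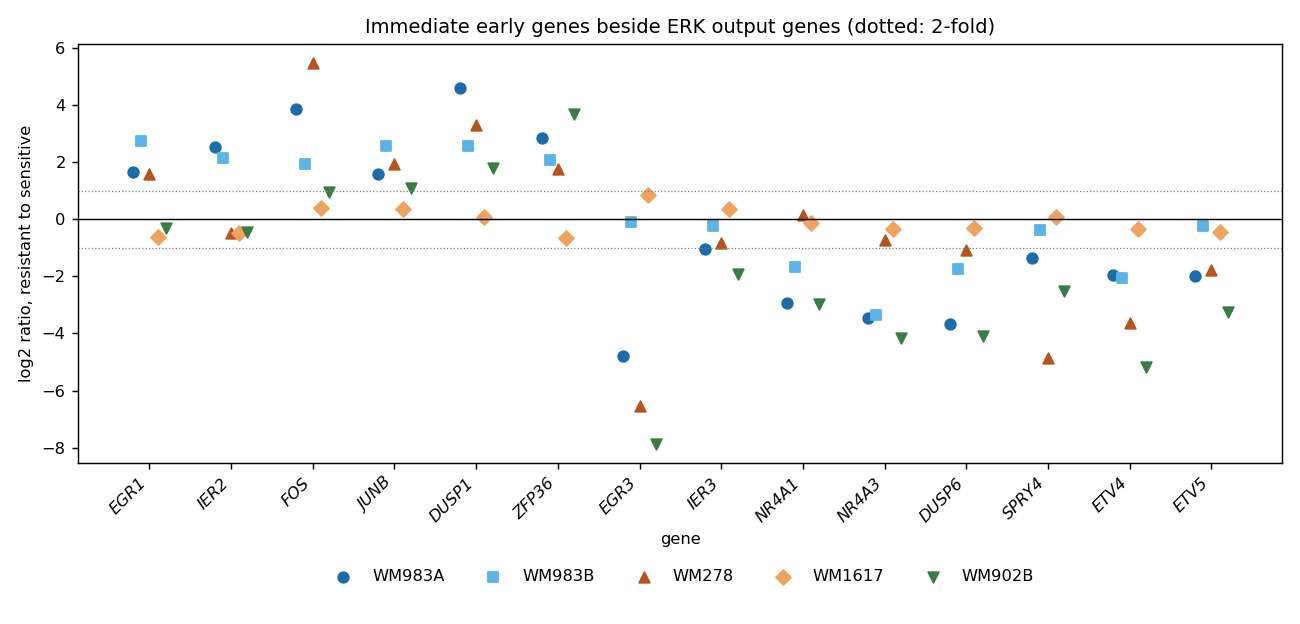
Log2 ratio of resistant to sensitive (vertical axis) for 5 members beside other immediate early genes and ERK output genes, 1 symbol per line, with dotted lines at 2-fold. FOS, JUNB and DUSP1 are above 0 in all 5 lines, EGR1 and IER2 are split, and EGR3 reaches -7.86 in WM902B.

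Among 16 relatives of the members, of which 14 were tested, 1 was called higher and 1 lower, with a median log2 fold change of 0.33. IER5L, a relative of IER5, had an edgeR log2 fold change of 1.87 ± 0.67 (adjusted p = 0.632), with log2 ratios of 3.19, 2.84 and 1.25 in WM983A, WM983B and WM902B and of -0.27 and -0.73 in WM278 and WM1617. NR4A3, a receptor of the NR4A1 family, had -2.62 ± 0.91 (adjusted p = 0.630), with log2 ratios of -3.45, -3.36, -0.73, -0.35 and -4.15 in the order of lines above. Like NR4A1 it was lower in WM983A, WM983B and WM902B. With the block NR4A3 remained and IER5L did not. Of 8 regulators of immediate early promoters, among them serum response factor and its partners, 0 passed the rule, and MKL2 (0.42 ± 0.20, adjusted p = 0.708) and MKL1 (0.41 ± 0.31, adjusted p = 0.818), coactivators of serum response factor, had the smallest edgeR p. Of 6 heat shock and stress genes 0 passed, with DNAJB1 at -0.59 ± 0.25 (adjusted p = 0.686) and HSPA8 at -0.60 ± 0.30 (adjusted p = 0.721), both under 2-fold.

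For MYC, 1 of 9 partners and antagonists passed, the antagonist MXD4 (1.51 ± 0.63, adjusted p = 0.685, edgeR), which was higher in all 5 lines with log2 ratios of 0.72, 2.03, 0.94, 0.99 and 2.80. Of 20 MYC target genes of ribosome biogenesis and growth, 0 passed and 1 had a log2 fold change above 0, with a median of -0.36. The 2 with the smallest p were ODC1, the first enzyme of polyamine synthesis (-0.91 ± 0.32, adjusted p = 0.632), and PES1, a ribosome assembly factor (-0.56 ± 0.23, adjusted p = 0.685). The median log2 ratio of these targets was 0.30 in WM983A, where MYC was 1.54, and -1.08 in WM902B, where MYC was -1.08. In WM983B it was -0.74 with MYC at 0.92, in WM278 -0.56 with MYC at 0.03, and in WM1617 -0.004 with MYC at -0.16. The lowest adjusted p of any gene in these lists was 0.630 by edgeR without the block and 0.461 with it.

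Likeness of pattern was described by Pearson's r of log2 normalised counts over the 10 libraries, which share lines and patients and so are not independent. Of the 45 pairs of members, EGR3 and IER3 were most alike (r = 0.95, same direction in all 5 lines), and EGR2 and IER5 least (r = -0.67), with a median of 0.11. IER2 and IER5 had r = 0.76, although they moved in the same direction in only 2 lines. EGR1 and IER2 also had 0.76, IER3 and NR4A1 0.75, IER2 and KLF4 0.72, and EGR3 and NR4A1 0.70. Over all 17288 genes, those closest to EGR3 were the adaptor SH2B3 (r = 0.96) and ETV5 (r = 0.95), and those closest to IER3 were EGR3 and USP6NL (both r = 0.95). EPB41L4A-AS1 was closest to EGR1 (r = 0.95), TCF7L1 to EGR2 (r = 0.97), RHOG to IER2 (r = 0.96) and COA6 to IER5 (r = 0.97). AC068134.10 was closest to KLF4 (r = 0.97), PLEKHA6 to KLF6 (r = 0.93), IGHMBP2 to NR4A1 (r = 0.97) and HNRNPA1 to MYC (r = 0.96). The genes closest to each member were picked from all 17288, so their r is high by selection. No chance level was worked out.

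All 10 members are protein-coding in GENCODE release 44 (GRCh38). EGR1 lies at chr5:138465479-138469303 (plus strand), EGR2 at chr10:62811996-62819167 (minus), EGR3 at chr8:22687659-22693480 (minus), IER2 at chr19:13150411-13154911 (plus) and IER3 at chr6:30743199-30744548 (minus). IER5 lies at chr1:181088700-181092900 (plus), KLF4 at chr9:107484852-107490482 (minus), KLF6 at chr10:3775996-3785281 (minus), NR4A1 at chr12:52022832-52059507 (plus) and MYC at chr8:127735434-127742951 (plus). Exons of several members overlap an RNA gene on the opposite strand, and the sources used here do not state that counting used strand, so reads of such partners cannot be told apart. The partner of EGR3, ENSG00000253125, shares 164 exon bases and had 407, 202, 23.5, 51.3 and 61.8 counts in the sensitive and 1.00, 52.2, 0.355, 34.1 and 1.00 in the resistant lines, at most 407 counts beside 635 of EGR3 in the same library. The partner of IER2, CTC-250I14.6, shares 946 bases (30.7% of the exon length of IER2) and had 8.48 to 252 counts in the sensitive lines. In the resistant WM983A, WM983B and WM278 libraries it had 2.55, 0 and 0 counts, where IER2 had 3312, 3090 and 2127. RP11-1100L3.8 shares 754 bases with NR4A1 and had at most 111 counts, IER3-AS1 and HCG20 share 440 and 85 bases with IER3 and had at most 17 and 28 counts beside 16.5 to 68 of IER3, and CASC11 had at most 4 beside MYC.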

How the data were processed

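mRNA was enriched with oligo-dT and sequenced with single-end reads of 75 cycles, 1 library per line and state. Alignment by the authors was with HISAT2 (GRCh38) and quantification in StrandNGS. The versions, the annotation and the use of strand are not given in the sources used here. The raw values deposited by the authors are expected counts, estimated counts that include fractions of reads. The second column deposited by the authors holds, for a resistant library, log2 ratios within its line, normalized by the DESeq algorithm. These ratios are the authors' comparison and were used only to recover 455 counts of the sensitive WM983B library that a spreadsheet had turned into dates, all of which fitted the digits still visible.

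Rounded counts were tested with edgeR 4.0.16 (filterByExpr, TMM, glmQLFit and glmQLFTest), DESeq2 1.42.0 and limma 3.58.1 under R 4.3.3. The SE given for edgeR is the absolute log2 fold change divided by the square root of the quasi-likelihood F statistic. That of limma comes from its own fit. Other steps used Python 3.11.15. Levels and line ratios used unrounded counts scaled by TMM factors, with 1 added before log2. A gene was called at a fold change of at least 2 and an unadjusted p of at most 0.05 and, separately, at a Benjamini-Hochberg adjusted p no higher than 0.05. Tests were two-sided, fits covered all genes, and the main fit had no block, because the study's methods name none. Pairing comes from the cell line: the deviations of the 2 libraries of a line had a mean correlation of 0.44, from -0.06 in WM983A to 0.67 in WM278, and of -0.11 between lines. The labels do not say that libraries are more than 1 culture each, so the lines serve as replicates. The test steps were also run on simulated data. The 3-count floor covers counting error only.

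The members and lists were chosen with earlier results of these data known. The genes named are the members, the references DUSP6, SPRY4, ETV4, ETV5, FOS and JUN, up to 4 genes per list past the unadjusted rule (or the 2 with the smallest p where none passed), the 2 genes most like each member, of which 1 or both are given, and antisense partners. Alternatives were another normalization, filter, pseudocount and test, the block, the primary lines alone and each line left out.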

Additional observations from a re-analysis of the deposited data

Results flagged for a closer look

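In each group of 5 libraries, and for the 5 ratios, the gap of the highest or lowest value to its neighbour was compared with Dixon's critical value of 0.71 of the range, and 2 of 30 such groups passed it, where chance passes about 1 in 20. The sensitive WM278 library had the highest IER2 level of the sensitive lines, 11.50 on the log2 scale, with a gap of 0.796 of the range. The resistant WM1617 library had the lowest KLF4 level of the resistant lines, 4.07 on the log2 scale, with a gap of 0.816 of the range, and the sensitive WM1617 library was also the lowest of its group.

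The change of EGR3 differed between lines of metastatic and of primary origin by 6.92 on the log2 scale (edgeR interaction, unadjusted p of 0.000458, adjusted p = 1.00). EGR3 was lower in 3 of 3 primary lines, with log2 ratios of -4.78, -6.55 and -7.86, and within 2-fold in both metastatic lines. The metastatic WM1617 had only 6.63% of all genes at least 2-fold apart, so the metastatic side rests mainly on WM983B. The test was chosen after the values were seen and fails the correction.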

How the results depend on the processing

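Cell line as a replicate block took the members called from 2 to 1 (NR4A1) by removing EGR1, which had a log2 fold change of 1.02 with the block, and changed no other member's call. The fit with no filter on low counts called 2258 genes against 763, since it tested 38285 genes. Leaving out 1 line gave 0 to 4 members and 419 to 1493 genes called. No member was called without WM983A (562 of 17465 genes tested) or WM983B (422 of 17431), and 1 without WM902B (EGR1, 419 of 17378). There were 2 without WM278 (IER2 and NR4A1, 841 of 17310) and 4 without WM1617 (EGR1, EGR3, IER3 and NR4A1, 1493 of 17427). The exact permutation test passed 0 to 2 members, 0 without WM983A, WM983B or WM902B and 2 without WM1617, and the number with 1 direction in all lines was 0 to 2, 1 without WM278 and 2 without WM1617. With all lines, 6.20% of all genes passed the exact test and 11.1% had 1 direction. The shares with a line left out are not given here. Limma voom called EGR3 and NR4A1 (624 of 17288 genes tested), and the primary lines alone EGR3, IER3 and NR4A1 (1025 of 17627).

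With 1 line left out, the log2 fold change of EGR2 ran from -0.024 (without WM983B) to 0.94, of IER5 from -0.20 (without WM983A) to 0.51, of KLF4 from -0.085 (without WM983B, and -0.025 without WM902B) to 1.31 and of MYC from -0.027 (without WM983A) to 0.66. Mean log2 differences ran from -0.49 to 0.90 for EGR2, -0.28 to 0.36 for IER5 and -0.076 to 0.58 for MYC, turning without the same lines. In the primary lines alone EGR2 was at -0.23 and KLF4 at -0.067. The cause was not tested. Among the tested values of single genes, 168 kept their direction and side of the threshold, 13 lost the threshold, 8 gained it and 10 turned, and 150 line ratios, which have no test, moved by less than the spread between lines. Depth limits EGR3 in the resistant WM902B library, at 3.96 counts, and EGR2, at 5.00 counts in 1 library. With 10 counts required in every library these 2 genes were not tested.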
